A study of Homo sapiens with 15 samples.

Results

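HLA class I presentation was described through 7 genes of 56624 gene symbols in a table of transcript levels from the human TF-1 leukemia line. They are the regulator NLRC5, the heavy chains HLA-B, HLA-C and HLA-E, the shared light chain B2M and the peptide-trimming enzymes ERAP1 and ERAP2. These genes were chosen by symbol, with earlier results of these data known. Poly(A) RNA was sequenced in 15 libraries, in 5 groups of 3. Base-edited TF-1 cells carried IDH1R132H, IDH2R140Q, IDH2R140W or IDH2R172K and grew without GM-CSF, and unedited Parental TF-1 cells received 2 ng/ml of that cytokine. All groups were otherwise kept in RPMI-1640 with serum and antibiotics. The edited lines therefore differ from Parental in both genotype and medium, which cannot be told apart; among themselves, the 4 lines had the same medium. The labels do not say whether an edited line is a clone or a pool, nor whether the 3 libraries of a line are independent cultures, so the spread behind each p-value may be technical. The study's stated aim was to find transcript changes in these isogenic lines. IDH1 and IDH2 encode isocitrate dehydrogenases of the cytosol and the mitochondrion, and the named substitutions are known to make the enzymes produce 2-hydroxyglutarate.

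Class I molecules stand on nearly all nucleated cells and show peptides from inside the cell to CD8+ T cells and natural killer cells. Proteasomes cut the peptides, the TAP transporter moves them into the endoplasmic reticulum, ERAP1 and ERAP2 trim them there, and the loading complex places them in a groove of the heavy chain, which needs B2M to leave for the surface. NLRC5 acts with the RFX factors and NF-Y at class I promoters, and interferons raise most genes of the pathway. In leukemia, the amount of class I on the cell decides in part what T cells can see.

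The promoters of HLA-B, HLA-C and B2M are shown because HLA-B and HLA-C rose in the 3 IDH2 lines, in none of which B2M passed. Each is 160 bases, from 200 to 41 bases before the transcription start, written 5′ to 3′ on the gene's strand as RefSeq gives it in GRCh38.p14. Capitals mark the motifs searched on both strands. These were the interferon response core GAAANNGAA, GAS as TTCNNNGAA, the NF-kB site GGGGATTCC, CRE as TGACGTCA and its shorter form TGACG, and the Y box ATTGG, which reads CCAAT on the other strand.
HLA-B, chr6:31357220-31357379, minus strand: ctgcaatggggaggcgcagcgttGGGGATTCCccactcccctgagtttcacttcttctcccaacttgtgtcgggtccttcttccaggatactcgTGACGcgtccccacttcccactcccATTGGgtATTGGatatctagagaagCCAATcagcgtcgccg
HLA-C, chr6:31272133-31272292, minus strand: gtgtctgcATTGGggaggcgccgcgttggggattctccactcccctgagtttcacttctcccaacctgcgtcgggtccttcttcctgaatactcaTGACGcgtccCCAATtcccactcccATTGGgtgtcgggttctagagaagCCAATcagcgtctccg
B2M, chr15:44711317-44711476, plus strand: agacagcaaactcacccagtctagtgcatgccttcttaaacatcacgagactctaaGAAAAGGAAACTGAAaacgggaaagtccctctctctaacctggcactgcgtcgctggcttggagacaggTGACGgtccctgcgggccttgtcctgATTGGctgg
The stretches of HLA-B and HLA-C were identical at 143 of 164 aligned columns (87.2%). B2M matched HLA-B at 40.9% of columns and HLA-C at 40.6%. Each of the 3 promoters held a TGACG between 106 and 71 bases before the start, and a Y box nearer to the start. TGACG occurs in 24.55% and the Y box in 34.61% of the 35116 promoter windows of the same table, each 300 bases long. HLA-B held the NF-kB letters, which occur in 0.28% of windows, 177 to 169 bases before the start. B2M held 2 overlapping interferon response cores between 144 and 130 bases before the start, a core found in 8.11% of windows. Neither HLA-B nor HLA-C held the core in these exact letters, and looser forms of the interferon element were not searched. ERAP1 held a core at 4 to 12 bases after the start of 1 of its 2 windows, and ERAP2 held a core 30 to 22 bases before the start of 1 of 2. GAS occurs in 7.66% of windows and the whole CRE in 1.85%, and neither was found in a window of these 5 genes. The table matched 5 of the 7 genes, without NLRC5 and HLA-E. A match of letters is a description and does not show that a factor binds.

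Levels are in TPM, a transcript abundance corrected for length and for the library's total. It keeps no read number, which leaves sequencing depth unknown and counting error without an estimate. Differences between groups are of log2(TPM + 1), so those of genes at low level come out too small. They were fitted with limma over the 14881 genes that reached 1 TPM in 3 or more libraries. A gene rose or fell where its Benjamini-Hochberg adjusted p was under 0.05, and a 2-fold rise or fall also needed a log2 difference of at least 1. Of the 7 genes 6 were tested, since HLA-E stayed under the filter. An exact test of 3 libraries against 3 cannot go below p = 0.10, so each adjusted p leans on variance that limma pools over genes and groups.

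Between 12796 and 13792 symbols reached 1 TPM in a library. Libraries of a group correlated at Pearson's r of 0.974 to 0.990 across genes, and all 15 were closest to a library of their own line. The share of TPM in ribosomal protein genes was 19.9% in IDH2R140W replicate 3 and 18.9% in Parental replicate 2, higher than 16.5% and 16.7% in the other IDH2R140W libraries and 15.1% and 16.1% in the other Parental libraries. The median log2 difference of all genes against Parental was 0.16 for IDH1R132H and 0.23, 0.03 and 0.13 for IDH2R140Q, IDH2R140W and IDH2R172K. Of the genes that differed 2-fold, 71.5%, 75.4%, 56.1% and 68.3% were higher in the edited line, and 54.5%, 54.9%, 53.5% and 54.4% after median-ratio scaling. Of 11 TF-1 markers 8 were tested, with CD34, a progenitor surface protein, at 512, 485, 276 and 533 TPM in IDH1R132H, IDH2R140Q, IDH2R140W and IDH2R172K, against 152.5 in Parental. KIT, a growth factor receptor, fell 2-fold in IDH2R140Q and IDH2R172K, and stood at 5.74, 2.31, 14.05 and 3.12 TPM in the same order of lines, against 8.503 in Parental. CSF2RB, a chain of the GM-CSF receptor, was at 54.3, 117.6, 167.0 and 120.1 TPM, against 66.6 in Parental, a 2-fold rise in IDH2R140W. GATA1, CSF2RA and IL3RA, on 2 rows each, were listed at 0 in all 15 libraries. Of 10 T, B and NK cell markers 7 stayed under 1 TPM everywhere, with CD3E at most 0.20 and MS4A1 at 0. Their summed level was 49.9 to 59.6 TPM in IDH1R132H, 12.01 to 16.28 in IDH2R140Q, 15.03 to 21.75 in IDH2R140W, 72.7 to 77.8 in IDH2R172K and 66.9 to 92.5 in Parental. CD3D gave most of it in IDH1R132H, IDH2R172K and Parental, at 31.98, 52.7 and 68.4 TPM, and averaged 2.04 in IDH2R140Q and 9.09 in IDH2R140W, where NKG7 stood at 11.8 and 7.997. Of 6 monocyte and dendritic cell markers 5 stayed under 1 TPM, and the summed level, mostly CSF1R, was at most 21.1 TPM, in IDH2R172K. Among 8 fibroblast, epithelial and endothelial markers, KRT8 and KRT18 gave most of a sum of 536 to 806 TPM, highest in IDH1R132H, with EPCAM at most 0.55 and COL1A1 at most 1.00. CDH5, an endothelial cadherin, averaged 12.3, 4.86, 0.467 and 24.5 TPM in IDH1R132H, IDH2R140Q, IDH2R140W and IDH2R172K, against 0.747 in Parental, and rose 2-fold in IDH1R132H, IDH2R140Q and IDH2R172K. The part of these markers in the results on class I genes was not tested. In such bulk RNA, fewer cells with a transcript and less of it per cell cannot be told apart.

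The classical heavy chains differed most of the 6 tested members in IDH2R140Q and IDH2R140W. In IDH2R172K NLRC5, at 1.45 on the log2 scale, differed more than HLA-C, at 1.09. HLA-B and HLA-C rose at least 2-fold in all 3 IDH2 lines, most in IDH2R140Q, then IDH2R140W, then IDH2R172K. In IDH1R132H, HLA-C fell and HLA-B did not pass. The regulator NLRC5 rose at least 2-fold in IDH2R140Q and IDH2R172K. B2M, the light chain, fell in IDH1R132H and passed in none of the IDH2 lines. ERAP1 rose in IDH2R140Q and IDH2R172K, by under 2-fold. No member fell 2-fold in any line, where 3.09%, 2.47%, 2.10% and 2.96% of all tested genes did so in IDH1R132H, IDH2R140Q, IDH2R140W and IDH2R172K. At any size, 2, 4, 2 and 4 of the 6 tested members passed in these lines, against 43.8%, 44.4%, 24.0% and 39.1% of all genes. Among the 6 members 2-fold rises numbered 0 in IDH1R132H, where 7.74% of all tested genes rose 2-fold, 3 in IDH2R140Q (7.56%), 2 in IDH2R140W (2.68%) and 3 in IDH2R172K (6.36%). The 4 comparisons share the Parental libraries, so their likeness is not independent. The median difference of the 6 members was 0.23, 1.19, 0.46 and 0.99 in the same order, beside the medians of all genes given above.

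**Figure D1:**
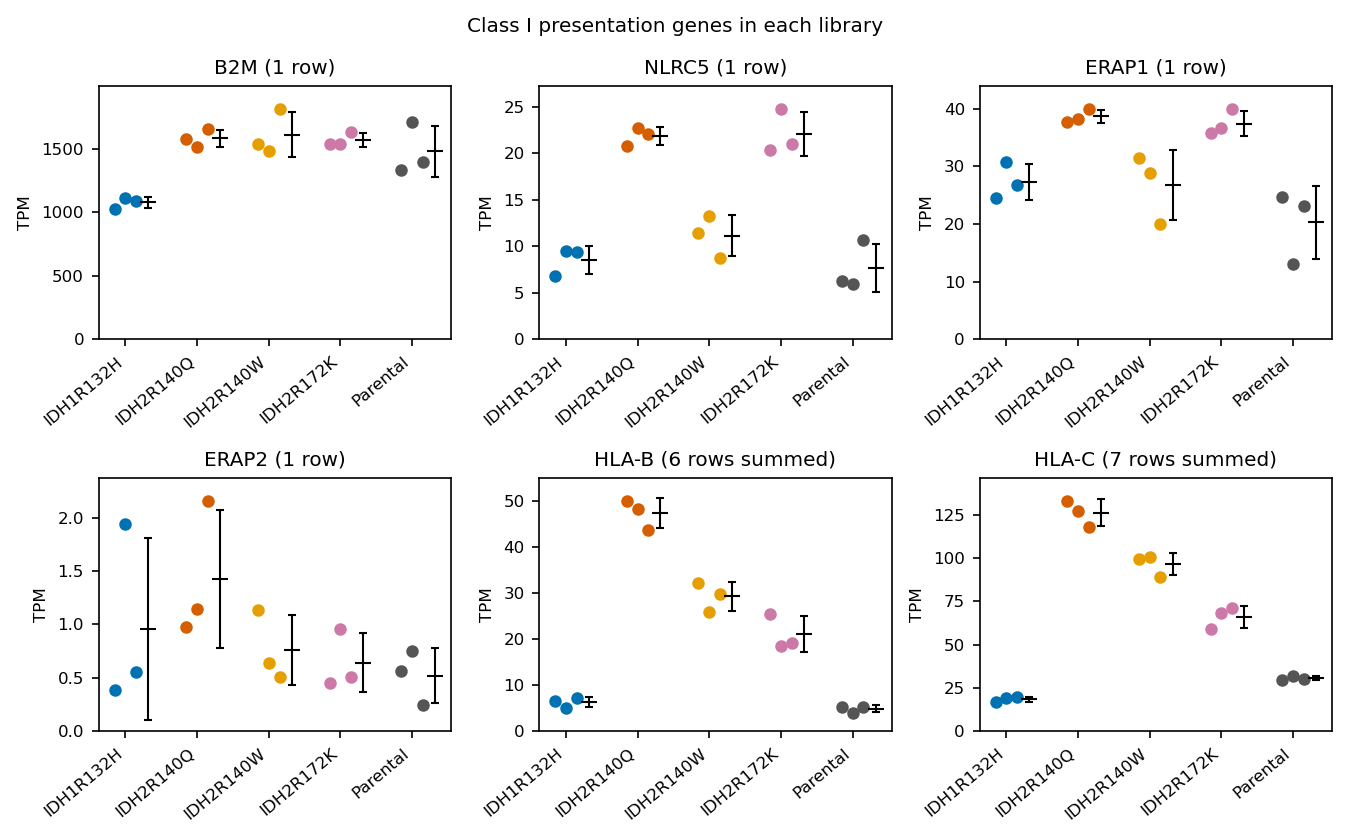
TPM of the 6 tested genes in each of the 15 libraries (points), with the group mean and SD at the right of each group (n = 3); HLA rows were summed. HLA-B and HLA-C were highest in the 3 IDH2R140Q libraries, while B2M separated only the 3 IDH1R132H libraries, at 1027 to 1111 TPM, from all others.

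NLRC5 (ENSG00000140853, GENCODE 29 on hg38, chromosome 16, 56989485 to 57083531, plus strand) encodes a nuclear NOD-like receptor protein that switches on class I genes. It stood at 20.8, 22.7 and 22.0 TPM in the 3 IDH2R140Q libraries and at 20.4, 24.7 and 21.0 in IDH2R172K. The other libraries had 11.4, 13.3 and 8.80 TPM in IDH2R140W, 6.79, 9.47 and 9.39 in IDH1R132H, and 6.33, 5.98 and 10.6 in Parental. The IDH2R140Q and IDH2R172K libraries thus all lay above the 9 others, and those of the 3 other groups overlapped. Against Parental, NLRC5 rose 2.85-fold in IDH2R140Q (log2 difference 1.44, SE 0.19, limma adjusted p = 4.76e-05) and 2.88-fold in IDH2R172K (1.45, 4.43e-05). It did not pass in IDH2R140W (0.51, limma adjusted p = 0.0706), where it passed without IDH2R140W replicate 3 (0.66, 0.0272) or without Parental replicate 3 (0.75, 0.00750). In IDH1R132H its difference was 0.17 (limma adjusted p = 0.507), a sign that turned to -0.01 after median-ratio scaling and to -0.04 after quantile normalisation. From high to low the order was IDH2R172K and IDH2R140Q, which were not told apart (difference of IDH2R140Q from IDH2R172K -0.01, 95% interval -0.43 to 0.41), then IDH2R140W, IDH1R132H and Parental, which were not told apart either.

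HLA-B and HLA-C encode classical heavy chains, which carry the peptide groove, and stand near each other on chromosome 6. GENCODE 29 places HLA-B (ENSG00000234745) at 31269491 to 31357188 and HLA-C (ENSG00000204525) at 31268749 to 31272130, minus strand, and the span given for HLA-B overlaps HLA-C. Their symbols fill 6 and 7 rows of the table, whose identity the table does not give, and rows of a symbol were summed. Reads that fit several rows or related HLA genes could be split or lost, so HLA levels are uncertain and are compared only between groups, not with other genes.

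HLA-B summed to 50.02, 48.1 and 43.7 TPM in IDH2R140Q, to 32.1, 25.9 and 29.7 in IDH2R140W and to 25.5, 18.5 and 19.1 in IDH2R172K. It was 6.49, 5.03 and 7.19 in IDH1R132H, against 5.22, 3.98 and 5.24 in Parental. All 9 IDH2 libraries were above all IDH1R132H and Parental libraries, which overlapped with each other. The rise against Parental was 9.83-fold in IDH2R140Q (log2 difference 3.06, SE 0.15, limma adjusted p = 3.08e-09), 6.07-fold in IDH2R140W (2.38, 7.65e-08) and 4.37-fold in IDH2R172K (1.92, 2.95e-07). In IDH1R132H the difference was 0.31 (limma adjusted p = 0.110), which passed without IDH1R132H replicate 2 (0.44, 0.0416) and had the opposite sign in the row of highest mean (-0.17).

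HLA-C summed to 133.5, 127.4 and 118.0 TPM in IDH2R140Q, to 99.4, 100.8 and 89.3 in IDH2R140W and to 59.1, 68.1 and 71.5 in IDH2R172K. It was 16.8, 18.8 and 19.5 in IDH1R132H, against 29.8, 31.7 and 30.2 in Parental. No 2 groups overlapped, and the IDH1R132H libraries were the lowest. HLA-C rose 4.13-fold in IDH2R140Q (log2 difference 2.01, SE 0.09, limma adjusted p = 9.21e-10), 3.16-fold in IDH2R140W (1.63, 1.54e-08) and 2.17-fold in IDH2R172K (1.09, 3.63e-07). In IDH1R132H it fell by 39.9% (log2 difference -0.71, limma adjusted p = 1.88e-05), and it kept that direction under all 24 alternatives, from -0.91 to -0.65.

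Within HLA-B, 5 of 6 rows held values above 0 and shared the level as 34.6%, 24.9%, 20.8%, 10.7% and 8.97%. The row of highest mean was 3.87-fold higher in IDH2R140Q than in Parental, whereas 3 of the next 4 were 16.5-fold, 13.9-fold and 17.5-fold higher. The other stood at 12.4, 12.8 and 11.1 TPM in IDH2R140Q and was listed at 0 in all 3 Parental libraries. The rows of HLA-B thus rose by unequal folds. Of the HLA-C rows, 4 had a mean of at least 1 TPM, with 66.8%, 24.6%, 5.64% and 2.91% of the level. They were 3.96-fold, 4.19-fold, 4.75-fold and 9.17-fold higher in IDH2R140Q than in Parental. In IDH1R132H they stood at 0.585, 0.657, 0.454 and 1.03 of Parental, so that the smallest of the 4 was not lower there. Taking only the row of highest mean left HLA-B at 1.71 and HLA-C at 1.94 on the log2 scale in IDH2R140Q, both still 2-fold. In IDH2R172K they came to 0.98 and 0.99, which passed but missed 2-fold, and 1 member in place of 3 then counted as a 2-fold rise.

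**Figure D2:**
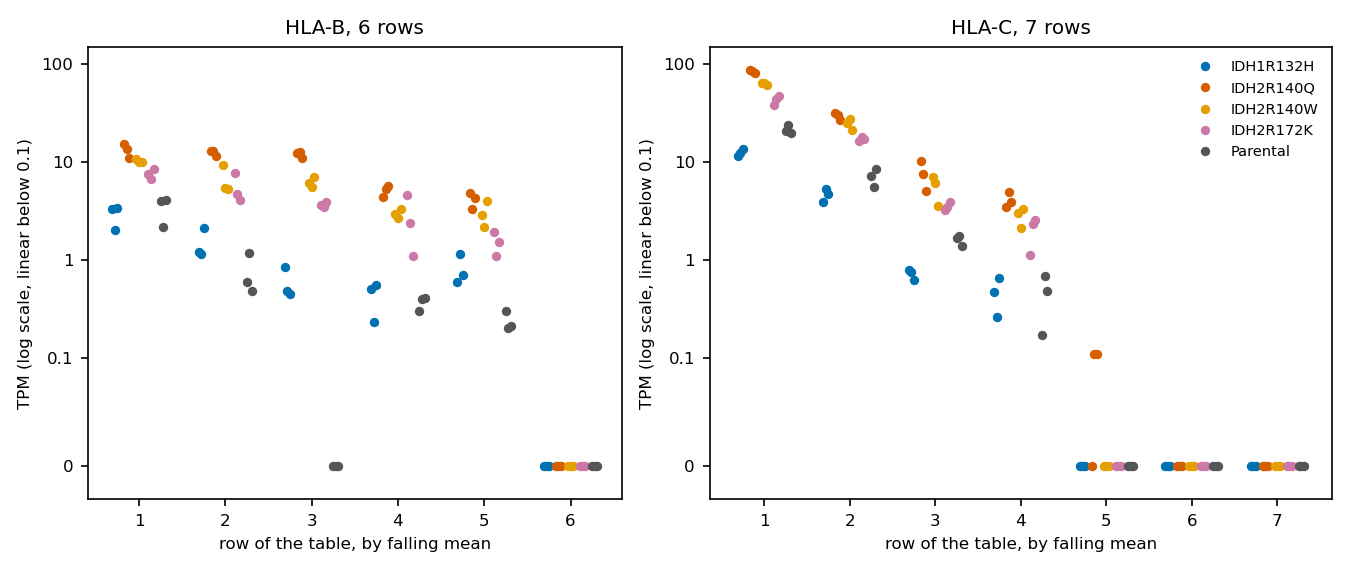
TPM of each row of HLA-B (left) and HLA-C (right) in the 15 libraries, on an axis that is logarithmic above 0.1 and linear below; rows are ordered by their mean and points are libraries, coloured by group. In each row with a mean of at least 1 TPM the IDH2R140Q group mean is the highest, and the third HLA-B row lies at 0 in all Parental libraries.

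HLA-E (ENSG00000204592, chromosome 6, 30489467 to 30494205, plus strand) encodes a heavy chain that shows leader peptides of other class I chains to natural killer cells. It fills 7 rows and was listed at 0 in 103 of its 105 values, with 0.11 TPM in IDH2R140Q replicate 2 and 0.10 in IDH2R140W replicate 3. This does not show that the gene is silent. Genes that every cell uses and that also fill several rows were listed at 0 as well. RPS18, a ribosomal protein gene on 6 rows, ABCF1 on 7 and GNL1 on 8 were at 0 in all 15 libraries, whereas TUBB, a tubulin gene on 8 rows, averaged 42.2 TPM. Of protein-coding symbols on 5 or more rows 86.7% (150 of 173) averaged under 1 TPM, against 38.2% (6584 of 17243) of those on 1 row. The same limit covers TAP1 (8 rows, at most 0.05 TPM), TAP2 (9, at most 0.35), TAPBP (5, at most 0.26), PSMB9 (8, at 0), HLA-F (7, at most 0.25) and HLA-G (8, at most 0.08), which were not tested.

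B2M (ENSG00000166710, chromosome 15, 44711487 to 44718877, plus strand) fills a single row and was the most abundant of the 1-row members. It stood at 1027, 1111 and 1091 TPM in IDH1R132H, against 1331, 1710 and 1393 in Parental. The IDH1R132H libraries were the 3 lowest of the 15. The mean of 1077 ± 43.7 TPM in IDH1R132H was 27.1% below that of 1478 ± 203 in Parental (SD, n = 3 each; log2 difference -0.45, SE 0.09, 95% interval -0.64 to -0.26, limma adjusted p = 0.00104). B2M averaged 1582 ± 67.9 TPM in IDH2R140Q, 1610 ± 177 in IDH2R140W and 1568 ± 54.99 in IDH2R172K. Its differences from Parental were 0.11, 0.13 and 0.09, and none passed (limma adjusted p = 0.359, 0.356 and 0.432). Those of IDH2R140Q and IDH2R172K turned negative after median-ratio scaling, at -0.16 and -0.07, and passed as rises after quantile normalisation, at 0.32 and 0.27.

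The highest B2M values, 1811 TPM in IDH2R140W replicate 3 and 1710 in Parental replicate 2, came from the libraries with the highest ribosomal share. Without these 2 libraries the fall in IDH1R132H was -0.34 (limma adjusted p = 5.07e-05). The differences of the IDH2 lines then passed, at 0.22 in IDH2R140Q (limma adjusted p = 0.00186), 0.15 in IDH2R140W (0.0409) and 0.20 in IDH2R172K (0.00296). HLA-B, HLA-C and NLRC5 kept their 2-fold calls against Parental without them. What else differs in these 2 libraries was not tested.

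**Figure D3:**
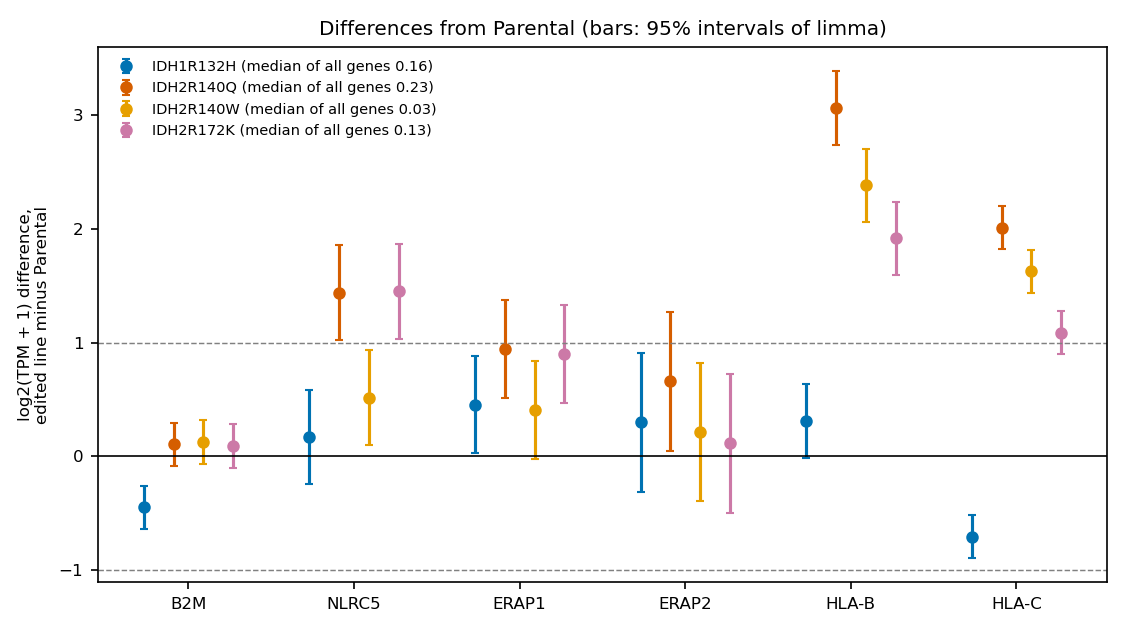
Difference of each edited line from Parental on the log2(TPM + 1) scale for the 6 tested genes, with 95% intervals from limma; dashed lines mark 2-fold, and the legend gives the median of all genes. The 3 IDH2 lines stand above the upper line for HLA-B and HLA-C, with HLA-C in IDH2R172K at 1.09, and IDH1R132H lies below 0 for B2M and HLA-C.

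ERAP1 (ENSG00000164307, chromosome 5, 96760810 to 96808100, minus strand) encodes the aminopeptidase that shortens peptides to class I length in the endoplasmic reticulum. It stood at 37.7, 38.3 and 39.9 TPM in IDH2R140Q and at 35.8, 36.6 and 39.9 in IDH2R172K. It was 24.5, 30.7 and 26.8 in IDH1R132H and 31.5, 28.8 and 20.0 in IDH2R140W, against 24.7, 13.1 and 23.1 in Parental. The 6 libraries of IDH2R140Q and IDH2R172K were the highest, and the other groups overlapped. ERAP1 rose 1.90-fold in IDH2R140Q (log2 difference 0.95, SE 0.20, limma adjusted p = 0.00175) and 1.84-fold in IDH2R172K (0.90, 0.00277). It did not pass in IDH1R132H (0.46, limma adjusted p = 0.0808) or IDH2R140W (0.41, 0.165). The lowest values, 13.1 in Parental replicate 2 and 20.0 in IDH2R140W replicate 3, again came from the libraries of high ribosomal share. From high to low the means ran IDH2R140Q, IDH2R172K, IDH1R132H, IDH2R140W and Parental, and no neighbours in this order passed. Without these the rise was 0.67 in IDH2R140Q (limma adjusted p = 6.24e-05) and 0.63 in IDH2R172K (0.000118), IDH2R140W passed at 0.32 (0.0269), and IDH1R132H stayed at 0.18 (0.121).

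ERAP2 (ENSG00000164308, chromosome 5, 96875939 to 96919716, plus strand), the neighbouring enzyme of the same function, was barely expressed. It stood at 0.38, 1.94 and 0.55 TPM in IDH1R132H, at 0.97, 1.14 and 2.16 in IDH2R140Q and at 1.13, 0.64 and 0.51 in IDH2R140W. It was 0.45, 0.96 and 0.51 in IDH2R172K, against 0.56, 0.75 and 0.24 in Parental. ERAP2 passed against Parental in no line. Its difference was greatest in IDH2R140Q (0.66, limma adjusted p = 0.0743), the only line whose 3 libraries all lay above Parental, and it passed there without IDH1R132H replicate 2 (0.0327).

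The edited lines were then compared with each other, where the medium was the same. In IDH1R132H, HLA-B and HLA-C fell at least 2-fold against each IDH2 line. HLA-B stood at 6.24 ± 1.10 TPM in IDH1R132H, against 47.3 ± 3.25 in IDH2R140Q (log2 difference -2.75, limma adjusted p = 2.05e-08), 29.2 ± 3.15 in IDH2R140W (-2.07, 1.37e-07) and 21.0 ± 3.86 in IDH2R172K (-1.60, 2.09e-06; SD, n = 3 each). HLA-C stood at 18.4 ± 1.38 TPM in IDH1R132H, against 126.3 ± 7.80 in IDH2R140Q (-2.72, limma adjusted p = 8.75e-11), 96.5 ± 6.27 in IDH2R140W (-2.33, 2.81e-10) and 66.2 ± 6.41 in IDH2R172K (-1.79, 3.29e-09). The heavy chain levels of IDH1R132H were thus between 0.132 and 0.297 of those in the IDH2 lines. NLRC5 fell 2-fold in IDH1R132H against IDH2R140Q (-1.27, limma adjusted p = 0.000215) and IDH2R172K (-1.28, 0.000165) and did not pass against IDH2R140W (-0.34, 0.187). There it passed after median-ratio scaling (-0.48, limma adjusted p = 0.0435), after quantile normalisation (-0.50, 0.0286) and without the 2 libraries of high ribosomal share (-0.49, 0.0488). B2M fell against all 3, by 0.55, 0.57 and 0.54 on the log2 scale (limma adjusted p = 0.000338, 0.000189 and 0.000337). ERAP1 and ERAP2 passed in none of these 3. The ERAP1 libraries of IDH1R132H lay below all those of IDH2R140Q and IDH2R172K, and its differences of -0.49 and -0.44 passed after both scalings and without the 2 libraries of high ribosomal share (limma adjusted p = 0.000361 and 0.000682). Of the 6 members 3 fell 2-fold in IDH1R132H against IDH2R140Q, 2 against IDH2R140W and 3 against IDH2R172K, where 3.10%, 2.39% and 3.32% of all genes did. At any size 4, 3 and 4 members passed, beside 28.5%, 35.6% and 32.5% of all genes.

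Among the IDH2 lines the heavy chains were graded and NLRC5 followed another order. HLA-C rose in IDH2R140Q against IDH2R140W (0.39, limma adjusted p = 0.00421), in IDH2R140Q against IDH2R172K (0.92, 2.30e-06) and in IDH2R140W against IDH2R172K (0.54, 0.000328). After median-ratio scaling the first of these was 0.17 and did not pass (limma adjusted p = 0.198). HLA-B was higher in IDH2R140Q than in IDH2R172K by 1.15 (limma adjusted p = 4.73e-05), the only 2-fold difference of a member among the IDH2 lines, where 4.45% of all genes rose 2-fold. In its row of highest mean this difference was 0.73 (limma adjusted p = 0.0115), under 2-fold. HLA-B also rose in IDH2R140Q against IDH2R140W (0.68, limma adjusted p = 0.00359), but not in its row of highest mean (0.33, 0.211). Its rise in IDH2R140W against IDH2R172K (0.47, limma adjusted p = 0.0301) was lost when IDH2R140W replicate 1 or 3 or IDH2R172K replicate 2 or 3 was left out (0.0690 to 0.115), when the 2 groups were fitted alone (0.0658), and in the row of highest mean (0.40, 0.146).

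NLRC5 in turn rose in IDH2R140Q against IDH2R140W (0.93, limma adjusted p = 0.00244) and fell in IDH2R140W against IDH2R172K (-0.94, 0.00212). IDH2R140W thus had more HLA-B and HLA-C than IDH2R172K at 11.2 ± 2.24 TPM of NLRC5, against 22.0 ± 2.35 in IDH2R172K (SD, n = 3 each). Without IDH2R140W replicate 2, the NLRC5 differences reached 2-fold, so that each of these comparisons then had 1 such member in place of 0. In IDH2R140Q against IDH2R140W 4.19% of all genes rose 2-fold, and in IDH2R140W against IDH2R172K 4.42% fell 2-fold. B2M, ERAP1 and ERAP2 passed in none of the 3 comparisons among IDH2 lines. Members passing at any size numbered 3 in IDH2R140Q against IDH2R140W (32.9% of all genes), 2 in IDH2R140Q against IDH2R172K (31.0%) and 3 in IDH2R140W against IDH2R172K (31.2%). Without the 2 libraries of high ribosomal share, ERAP1 rose in IDH2R140Q against IDH2R140W (0.35, limma adjusted p = 0.00941) and fell in IDH2R140W against IDH2R172K (-0.30, 0.0198).

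**Figure D4:**
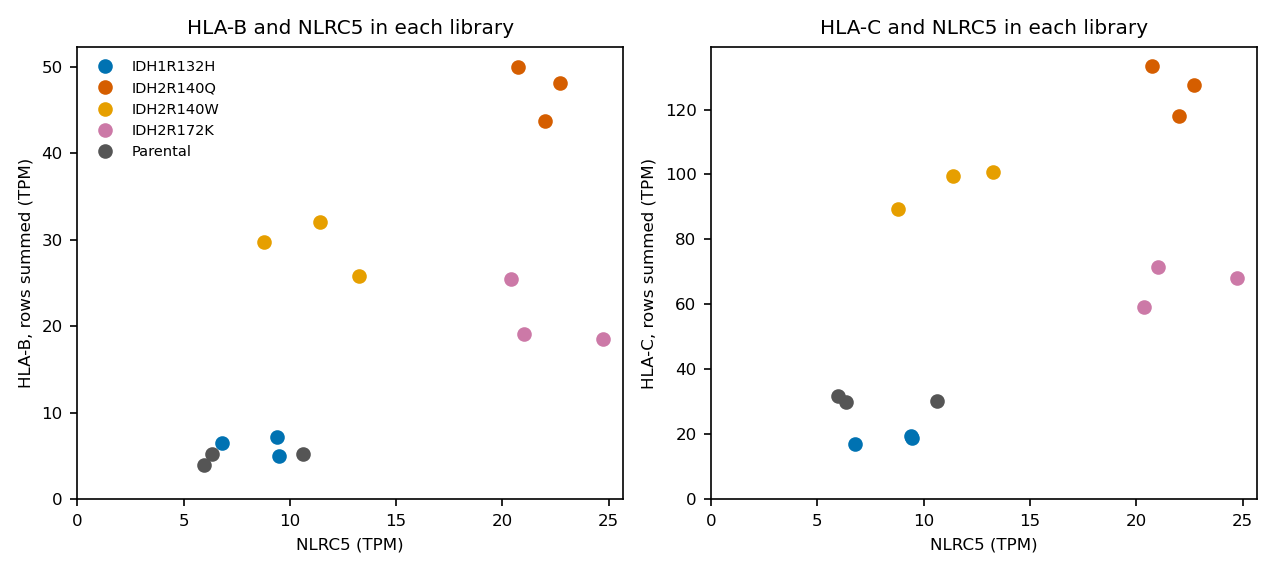
HLA-B (left) and HLA-C (right) against NLRC5 in the 15 libraries, in TPM with both axes from 0; each point is a library, coloured by group. IDH2R172K shares the NLRC5 range of IDH2R140Q at 20.4 to 24.7 TPM but stands lower on the HLA axes, and IDH2R140W stands above IDH2R172K at 8.80 to 13.3 TPM of NLRC5.

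Other genes of the pathway were followed in lists. Where a gene is named for a difference under 2-fold, it was chosen after its values were seen. Of all tested genes 30.1% rose and 13.7% fell in IDH1R132H, 33.3% and 11.1% in IDH2R140Q, 13.3% and 10.7% in IDH2R140W, and 25.5% and 13.5% in IDH2R172K, which is the background for the counts of each list. After median-ratio scaling 3232, 2914, 1913 and 2819 of 14833 genes rose in the same order of lines, and 3193, 3082, 1951 and 2949 fell. After quantile normalisation 3269, 3046, 2035 and 2873 of 14881 rose, and 3169, 2837, 1864 and 2944 fell. Of 4 tested genes of the peptide loading complex and its chaperones none rose or fell 2-fold in any line. At any size 1, 2, 2 and 2 of them rose in IDH1R132H, IDH2R140Q, IDH2R140W and IDH2R172K. In IDH2R140W 1 fell, and this count stayed after both scalings. CALR, the chaperone calreticulin, rose in all 4 lines, to 2702 ± 49.2 TPM in IDH1R132H, 2398 ± 17.2 in IDH2R140Q, 2385 ± 23.9 TPM in IDH2R140W and 2680 ± 60.1 in IDH2R172K, against 1720 ± 40.2 in Parental (SD, n = 3 each). Its log2 differences were 0.65, 0.48, 0.47 and 0.64 (limma adjusted p = 8.87e-09, 2.24e-07, 5.45e-07 and 1.40e-08). After median-ratio scaling they were 0.45, 0.21, 0.42 and 0.48, all still passing, with IDH2R140Q at an adjusted p of 0.0254. TAPBPL, which edits peptides on class I, rose in IDH2R172K, at 13.5 ± 0.489 TPM against 8.33 ± 0.116 in Parental (0.64, limma adjusted p = 0.000361). In IDH2R140Q and IDH2R140W it rose by 0.37, but under the alternatives its adjusted p reached 0.770 and 0.113.

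The proteasome activator PA28 and the immunoproteasome make peptides that suit class I. Of 4 tested genes of this list none changed 2-fold against Parental. PSMB8, an immunoproteasome subunit among these 4, fills 8 rows and averaged 0.685 TPM, at most 1.55. The limit of symbols on several rows covers it too, and at this level a 2-fold difference was hard to reach. At any size 2 fell in IDH1R132H, and in IDH2R140Q, IDH2R140W and IDH2R172K 1, 0 and 3 rose. The falls stayed after both scalings, whereas the rises numbered 0, 0 and 0 after median-ratio scaling and 1, 0 and 1 after quantile normalisation. PSME2, a PA28 subunit, was 138.2 ± 1.44 TPM in IDH1R132H, against 223.5 ± 29.1 in Parental (-0.68, limma adjusted p = 6.57e-05). PSME1, its partner, was 175.4 ± 6.57 TPM in IDH1R132H, against 230.1 ± 30.7 in Parental (-0.38, limma adjusted p = 0.00505). These falls went the same way as that of B2M, and kept their direction after both scalings. In IDH2R172K, PSME2 was 299.1 ± 11.3 TPM (0.43, limma adjusted p = 0.00319), which did not pass after median-ratio scaling (0.27, 0.177). PSME2 fell 2-fold in IDH1R132H against IDH2R172K (-1.11, limma adjusted p = 1.01e-06). Of 4 constitutive proteasome genes none changed 2-fold, 1 rose in IDH1R132H and 1 fell in IDH2R172K.

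Of 6 other peptide-trimming enzymes none changed 2-fold, and 3 rose in IDH2R140Q, where 33.3% of all genes did. After median-ratio scaling 1 rose and 1 fell there. LNPEP, the neighbour of ERAP2 that trims peptides in endosomes, was among them, at 7.37 ± 0.263 TPM, against 3.43 ± 1.19 in Parental (0.96, limma adjusted p = 0.00827). Of 4 tested genes near ERAP1 and ERAP2, ELL2, an elongation factor, rose 2-fold in IDH1R132H (56.5 ± 5.71 TPM) and IDH2R172K (48.9 ± 2.33), against 18.7 ± 5.18 in Parental (1.58 and 1.38, limma adjusted p = 1.91e-05 and 7.55e-05). None of 5 tested genes of the PRC2 repressor complex and class I turnover changed 2-fold. None of 6 genes near NLRC5 and none of 6 near B2M changed 2-fold against Parental. Of 4 tested class I family chains that pair with B2M, CD1D rose 2-fold in IDH2R140Q, at 1.30 ± 0.108 TPM, and was listed at 0 in the 3 Parental libraries.

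Among factors that act at class I promoters, the 2-fold rises were those of CIITA and NFYA. Of 13 tested, 4, 8, 1 and 6 rose in IDH1R132H, IDH2R140Q, IDH2R140W and IDH2R172K, and none fell, beside 30.1%, 33.3%, 13.3% and 25.5% of all genes that rose. The counts in IDH1R132H and IDH2R140W were thus near or under the background. After median-ratio scaling 3, 4, 2 and 6 rose, and 1 fell in each of IDH2R140Q and IDH2R140W. After quantile normalisation 3, 4, 3 and 6 rose, and without the 2 libraries of high ribosomal share 7, 9, 6 and 7 rose. The share of all genes in this last setting is not given here. The 2-fold rises numbered 1, 1, 0 and 2. CIITA, the class II counterpart of NLRC5, was 22.3 ± 1.08 TPM in IDH2R140Q and 8.14 ± 0.610 in IDH2R172K, against 2.59 ± 0.987 in Parental (2.74 and 1.38, limma adjusted p = 6.94e-08 and 4.66e-05). These are the lines in which NLRC5 rose 2-fold. In IDH1R132H and IDH2R140W, CIITA stood at 2.06 ± 0.556 and 1.76 ± 0.273 TPM and did not pass. NFYA, a subunit of the factor that binds the Y box, was 96.9 ± 1.69 TPM in IDH1R132H and 81.3 ± 2.48 in IDH2R172K, against 40.7 ± 8.75 in Parental (1.25 and 1.00, limma adjusted p = 3.44e-05 and 0.000282). In IDH2R172K it was 0.85 after both scalings. Under 2-fold, NFYA also passed in IDH2R140Q after median-ratio scaling (0.72, limma adjusted p = 0.000237) and quantile normalisation (0.81, 9.56e-05). In IDH2R140W the same scalings gave 0.30 (limma adjusted p = 0.0695) and 0.35 (0.0408).

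**Figure D5:**
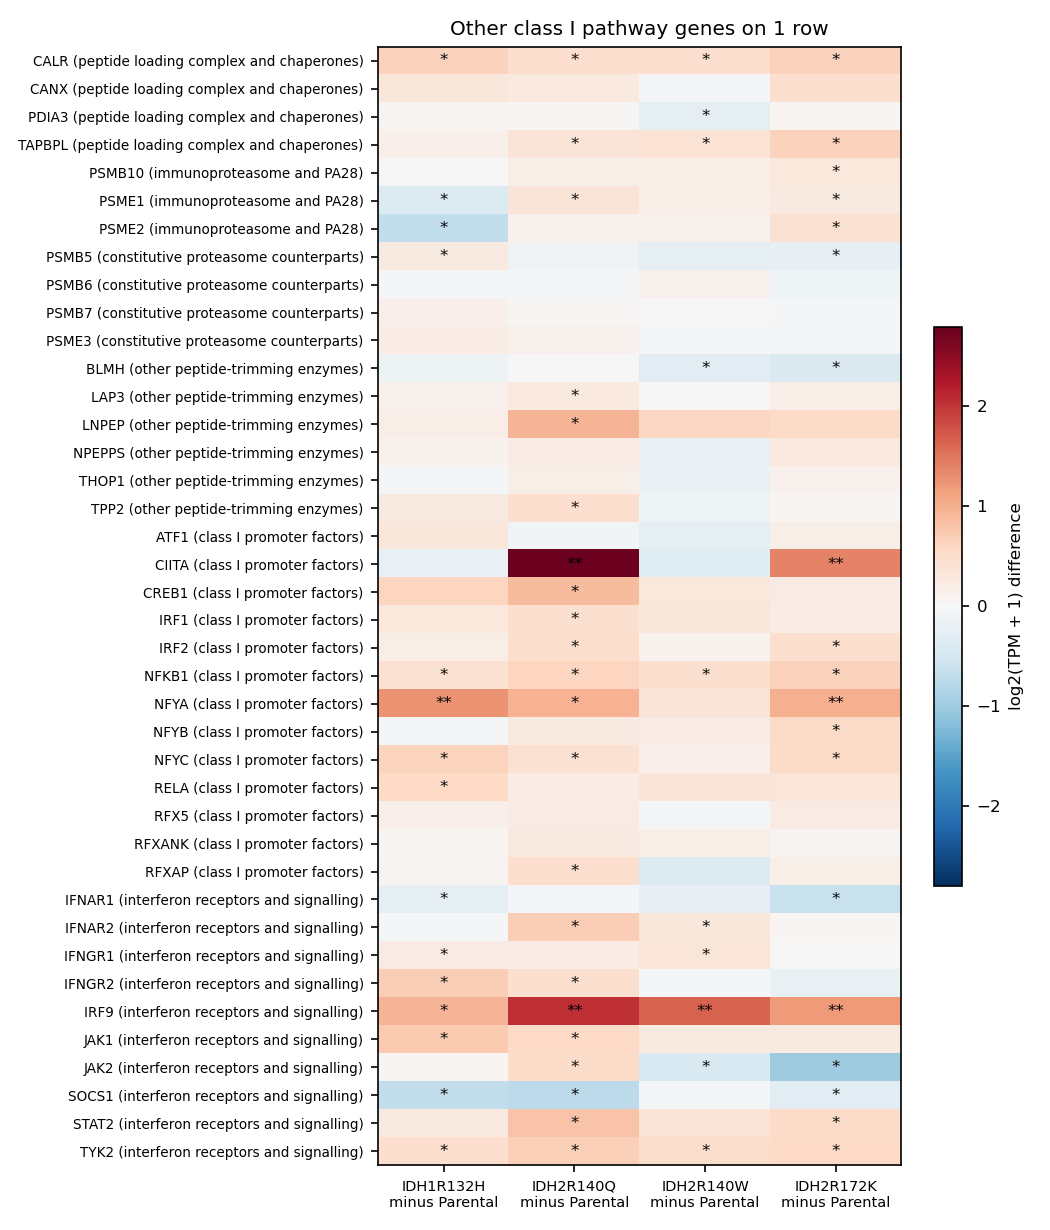
Difference from Parental on the log2(TPM + 1) scale (colour) for genes on 1 row from 6 class I pathway lists, in the 4 edited lines; 1 asterisk marks a limma adjusted p under 0.05 and 2 asterisks also a 2-fold difference. Among the genes drawn, the 2-fold marks fall on CIITA, NFYA and IRF9, and none falls on a loading, proteasome or trimming gene.

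Interferon receptors and signalling genes differed in both directions. Of 11 tested, 6, 8, 5 and 4 rose in IDH1R132H, IDH2R140Q, IDH2R140W and IDH2R172K, and 2, 1, 1 and 3 fell, beside the same background. After median-ratio scaling 4, 5, 5 and 4 rose and 3, 2, 2 and 4 fell. The list's median difference was 0.24, 0.56, 0.31 and 0.06, against 0.16, 0.23, 0.03 and 0.13 for all genes. IRF9, a DNA-binding factor of the type I interferon response, was 42.5 ± 1.98 TPM in IDH2R140Q, 32.6 ± 8.98 in IDH2R140W and 23.0 ± 2.87 in IDH2R172K, against 9.88 ± 3.76 in Parental, 2-fold rises of 2.05, 1.65 and 1.19 (limma adjusted p = 4.46e-06, 6.64e-05 and 0.000565). In IDH1R132H IRF9 averaged 19.3 TPM and missed the 2-fold call. It passed there after median-ratio scaling (0.77, limma adjusted p = 0.00727) and after quantile normalisation (0.74, 0.00868).

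Most interferon-stimulated genes rose in each line. Of 18 tested, 12, 17, 16 and 15 rose and 1, 0, 1 and 1 fell in IDH1R132H, IDH2R140Q, IDH2R140W and IDH2R172K, where 30.1%, 33.3%, 13.3% and 25.5% of all genes rose. Of these, 11, 13, 10 and 7 rose 2-fold in the same order of lines, and none fell 2-fold, beside 2-fold rises of 7.74%, 7.56%, 2.68% and 6.36% of all genes. The list's median difference was 1.20, 1.62, 1.21 and 0.79. After median-ratio scaling the 2-fold rises numbered 9, 12, 11 and 5, beside 818, 715, 399 and 757 of 14833 genes. IFI6, an interferon-induced mitochondrial protein, stood at 123.4 ± 2.37 TPM in IDH1R132H, 417.5 ± 14.4 in IDH2R140Q, 262.1 ± 27.8 TPM in IDH2R140W and 148.2 ± 1.87 in IDH2R172K, against 36.4 ± 3.43 in Parental (SD, n = 3 each). In IDH1R132H, IFI6 thus rose (1.74, limma adjusted p = 1.07e-09) while HLA-C, PSME2 and B2M fell. OAS1, a sensor of double-stranded RNA, was listed at 0 in all Parental libraries and stood at 1.41 ± 0.317, 19.6 ± 2.08, 9.77 ± 1.75 and 5.25 ± 1.34 TPM in IDH1R132H, IDH2R140Q, IDH2R140W and IDH2R172K. Summed T, B and NK cell markers, given above, were lowest in IDH2R140Q and IDH2R140W, where HLA-B and HLA-C were highest, and CD3E stayed at or under 0.20 TPM in all libraries. The part of these markers in the HLA levels was not tested.

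For each tested member the symbols most like it were taken from 9100 tested symbols on 1 row with a group mean of at least 10 TPM, by Pearson's r of log2(TPM + 1) over the 15 libraries. The libraries fall into 5 groups, so r mostly reflects the group levels and is given as a description. HLA-B was most like OAS1 (r = 0.970), then CMTM5 (0.968) and PFKL (0.965). HLA-C was most like SERPINB1 (r = 0.984), C1orf233 (0.984) and CTC-457E21.3 (0.976). SERPINB1 stood at 184.8 ± 0.777 TPM in IDH1R132H, 385.5 ± 18.2 in IDH2R140Q, 372.8 ± 5.72 TPM in IDH2R140W and 320.7 ± 17.2 in IDH2R172K, against 241.4 ± 5.40 in Parental, the same order of groups as HLA-C. NLRC5 was most like PCYOX1L (r = 0.952), RBM48 (0.950) and C19orf66 (0.943). C19orf66 stood at 18.6 ± 0.523 TPM in IDH1R132H, 51.0 ± 3.22 in IDH2R140Q, 26.1 ± 0.751 TPM in IDH2R140W and 56.3 ± 2.75 in IDH2R172K, against 15.8 ± 1.47 in Parental. B2M was most like THOC2 (r = 0.975), FAM216A (0.972) and LYAR (0.945), and ERAP1 like SF3B3 (0.980), TTC3 (0.961) and ZNF512 (0.961). ERAP2 came closest to RAB28, PHOSPHO2 and UFM1 at an r of 0.739 to 0.800, at levels where its own libraries varied widely.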

How the data were processed

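The authors deposited 1 table of TPM values, per the file header 1 column per library with gene symbols as row names. Per the submitters' processing notes STAR 2.7.3, HTSeq, RSEM and DESeq2 were used on build hg38; the annotation and strand setting were not given in the sources used here. TPM keeps no read number, so depth is unknown, and a change in abundant genes moves all others. Of 63568 rows, 6 with symbols turned into ambiguous dates were left out, and rows of a symbol were summed. The pseudocount before the log2 step was 1. limma 3.58.1 (R 4.3.3) with a variance trend served for all 10 comparisons, on 14881 genes in 15 libraries. In a simulated IDH1R132H set of 14881 genes set against Parental, 98 of 100 genes with a log2 change of 2 or more came back, beside 1 false call.

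All 7 members were named; from the other lists, genes past 2-fold, at most 4 by smallest adjusted p, and for each member the 3 most alike. Members, lists and tests were chosen with earlier results of these data known. Alternatives numbered 24: another pseudocount, other filters, scalings, fits and row choice, the replicate block, leaving out each library, and, chosen after seeing the data, leaving out 2 libraries together. Some list members are counted with their list and not reported here. Promoters came from RefSeq (GRCh38.p14), coordinates from GENCODE 29 (hg38).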

Additional observations from a re-analysis of the deposited data

Results flagged for a closer look

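Several members differed between edited lines by a direct test of the difference, at a limma adjusted p under 0.05 and at least 2-fold. In IDH1R132H against IDH2R140Q the log2 difference was -2.75 for HLA-B, -2.72 for HLA-C and -1.27 for NLRC5. In IDH1R132H against IDH2R140W it was -2.07 for HLA-B and -2.33 for HLA-C. In IDH1R132H against IDH2R172K it was -1.60 for HLA-B, -1.79 for HLA-C and -1.28 for NLRC5. In IDH2R140Q against IDH2R172K it was 1.15 for HLA-B. The groups compared did not overlap in any of these. The lines share their medium, and whether they differ in anything else besides the edit was not tested.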

How the results depend on the processing

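TPM gives no read depth, so no counting limit can be set, and symbols on several rows may lose reads. Of 60 member differences 31 passed. Of their 744 recomputed values 736 stayed on their side with the same sign, 8 lost the call and none reversed; 28 differences held throughout. The losses were in HLA-B and HLA-C of IDH2R140Q against IDH2R140W and HLA-B of IDH2R140W against IDH2R172K. Of the 29 others, 14 passed under at least 1 alternative (39 of 686 values). With the row of highest mean, members differing 2-fold numbered 1 in place of 3 in IDH2R172K against Parental and 0 in place of 1 in IDH2R140Q against IDH2R172K. Leaving out 1 library at a time moved the count from 0 to 1 in IDH2R140Q against IDH2R140W and in IDH2R140W against IDH2R172K, both without IDH2R140W replicate 2. The causes were not tested.

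Changes of sign fell on differences that did not pass. Median-ratio scaling gave -0.008 for NLRC5 in IDH1R132H against Parental, -0.162 and -0.067 for B2M in IDH2R140Q and IDH2R172K against Parental, -0.096 for ERAP1 in IDH1R132H against IDH2R140W, and -0.095 for B2M and -0.058 for ERAP1 in IDH2R140Q against IDH2R172K. Quantile normalisation gave -0.037 for NLRC5 in IDH1R132H and -0.036 for ERAP2 in IDH2R172K against Parental, -0.118 for ERAP1 and -0.053 for ERAP2 in IDH1R132H against IDH2R140W, 0.241 for B2M in IDH2R140Q against IDH2R140W (limma adjusted p = 0.0188), -0.188 for B2M in IDH2R140W against IDH2R172K and -0.049 for ERAP1 in IDH2R140Q against IDH2R172K. The row of highest mean gave -0.172 for HLA-B in IDH1R132H against Parental. Without the 2 libraries of high ribosomal share, ERAP1 and ERAP2 were -0.142 and -0.018 in IDH1R132H against IDH2R140W, and B2M was 0.067 in IDH2R140Q against IDH2R140W and -0.055 in IDH2R140W against IDH2R172K.

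Leaving out 1 library at a time, ERAP2 ranged from -0.038 to 0.508 in IDH1R132H and from -0.024 to 0.225 in IDH2R172K against Parental, from -0.251 to 0.294 in IDH1R132H against IDH2R140W, from -0.152 to 0.394 in IDH1R132H against IDH2R172K and from -0.046 to 0.234 in IDH2R140W against IDH2R172K. ERAP1 ranged from -0.142 to 0.174 in IDH1R132H against IDH2R140W. B2M ranged from -0.079 to 0.067 in IDH2R140Q against IDH2R140W, from -0.019 to 0.042 in IDH2R140Q against IDH2R172K and from -0.055 to 0.091 in IDH2R140W against IDH2R172K. NLRC5 ranged from -0.062 to 0.072 in IDH2R140Q against IDH2R172K.

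Libraries of the same replicate number did not deviate together (r from -0.285 to 0.223, 1 of 30 pairs over 0.1), and 7 of 15 correlated best with their own number. With the replicate block, members differing 2-fold numbered 0, 3, 2 and 3 in IDH1R132H, IDH2R140Q, IDH2R140W and IDH2R172K against Parental, as without it.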
